A study of Mus musculus with 4 samples.

Results

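The genome-wide response of mouse bone marrow-derived dendritic cells to LPS was described in cells that had received a control siRNA. It is the log2 level of each gene on the array of LPS-treated cells minus that on the array of unstimulated cells. Both arrays were taken from a set of 4, and every gene named by a single symbol was used, at its brightest probe set where it had several, which gave 19938 genes from 28856 probe sets. The cells had been grown from bone marrow for 10 days with 10% serum and GM-CSF at 20 ng/mL, which turns myeloid precursors into dendritic cells and macrophages. Control siRNA was introduced by electroporation in both groups; cells without electroporation or siRNA were not analysed here. One group was left unstimulated and the other received 100 ng/mL LPS 24 hours after the siRNA. Both were collected after a further 24 hours. The other 2 arrays hold cells in which NR4A3, an orphan nuclear receptor, was targeted by siRNA, without and with LPS at the same dose and times. The labels name BALB/c mice in the growth protocol and C57BL/6 mice in the sample characteristics. H2-Ea, a class II gene that C57BL/6 mice are known not to transcribe, stood at 13.62 without LPS and 13.61 with LPS. With 1 array per condition there is no replicate, no test and no p-value, and nothing in the labels tells whether separate cultures were used. A difference of levels in such a bulk culture cannot tell fewer cells of a type from less RNA per cell.

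LPS, the outer membrane glycolipid of gram-negative bacteria, is held by CD14 and MD-2 (gene Ly96) and sensed by TLR4. One arm of the signal runs through TIRAP and MyD88 to NF-kB and MAP kinases and drives inflammatory cytokines, and the other runs through TRAM and TRIF (Ticam2 and Ticam1) to TBK1 and IRF3 and drives interferon beta, which acts back on the cells through its receptor. Dendritic cells are known to answer with a change of state called maturation, in which they take up less antigen, show more co-stimulatory molecules and move towards lymph nodes.

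The cells carried the genes of GM-CSF cultures, which are known to mix dendritic cells with macrophages. Itgax (CD11c) stood at 12.85 and 12.38 without and with LPS, and Cd74 at 13.45 and 13.42. Macrophage genes also lay well above the median of all named genes, with Lyz2 at 13.75 and 13.74 and Csf1r at 12.80 and 12.04. Flt3 and Xcr1, genes of dendritic cells grown with Flt3 ligand, lay below the median level of all named genes (6.66) on both arrays. Of the 12 measured dendritic cell markers, the other 10 reached 6.66 on at least 1 array, among them Clec9a, which lay above it on both. Of the 12 measured neutrophil markers, 10 also lay below 6.66, among them Ly6g, Elane, Mpo and Ltf. So did Cd3e, Cd79a, Ms4a1, Ncr1, Siglech, Mcpt4, Prg2 and Klf1 of 7 other lineages. Other markers of these lineages reached 6.66 on at least 1 array. They were 2 of 8 for T cells, 1 of 6 for B cells and 1 of 7 for natural killer cells. For plasmacytoid dendritic cells they were 2 of 5, for mast cells and basophils 2 of 9 and for eosinophils 1 of 5. Of 3 erythroid markers 0 reached it, and of 7 stromal markers 5 did. The median level of the 4 arrays ran from 6.37 to 6.42, and Nr4a3, the siRNA target, stood at 11.21 and 11.77 with control siRNA and at 7.15 and 9.39 with its own siRNA.

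Most genes kept their level, and the changes upwards were the larger ones. A gene was counted when its level differed at least 2-fold, a log2 difference of 1, and its brighter array reached 6.66, which 10346 genes did. With LPS, 517 of these (5.00%) were higher by 2-fold or more and 396 (3.83%) were lower by as much, while 7907 (76.4%) differed by less than 0.5 on the log2 scale. Genes at least 4-fold apart were split into 175 higher and 63 lower, and those at least 8-fold apart into 61 higher and 7 lower. At 16-fold there were 24 higher genes and 0 lower. The higher genes had a median level of 8.04 without LPS and 9.96 with it, and the lower genes went from a median of 9.22 to 7.63. A level below 6.66 without LPS was found for 113 of the higher genes, and one below 6.66 with LPS for 101 of the lower ones. Folds of such dim genes are approximate. The deposited levels start at 4.21, and the processing named in the labels may add a constant of 16 before taking log2, which would understate the folds of dim genes.

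**Figure D1:**
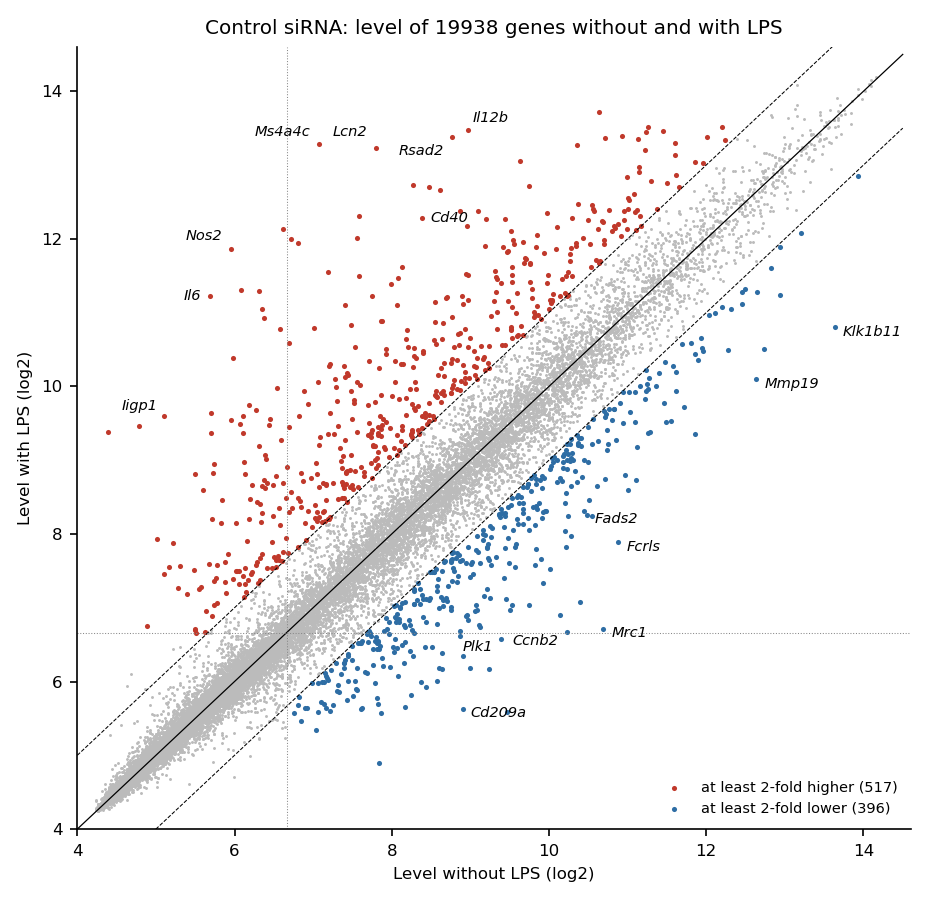
Level (log2) of each of 19938 genes without LPS (x axis) and with LPS (y axis) in cells with control siRNA. The solid line marks equal levels, dashed lines a 2-fold difference and dotted lines the level of 6.66. The 517 higher genes (red) reach farther from the line than the 396 lower ones (blue).

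Among genes at or above 6.66 on both arrays, the largest differences upwards began with the following. Ms4a4c, a tetraspan membrane protein, went from 7.08 to 13.28, and Lcn2, the siderophore-binding lipocalin 2, from 7.79 to 13.23. Ptgs2 (cyclooxygenase 2), Slfn4, Ifit2, Rsad2, Il12b, Cmpk2, Ifit1, Gbp4, Ifit3, Isg20, Gbp5, Ifi214 and Cd40 completed the first 15, with differences from 5.28 down to 3.89. From below 6.66 the largest differences were those of Nos2 (inducible nitric oxide synthase), Il6, Ifi205, Susd2, Cxcl10, Ifit3b, Ch25h, Iigp1, Klri2, Cd69, U90926, Cxcl9, Orm1, Ccr4 and Itgb8. Nos2 went from 5.95 to 11.87 and Itgb8, the fifteenth, from 6.54 to 9.98. BC023105 and Cxcl11, which RefSeq lists as pseudogenes, had differences in the same range and are left out of these 15.

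The lower genes above 6.66 on both arrays were led by the following. Mrc1, the macrophage mannose receptor, went from 10.69 to 6.71, and Ccnb2, cyclin B2, from 10.22 to 6.67. Cd93, Ccna2, Fcrls, Klk1b11, Alox5, Gda, Mmp19, Retnla, Ppbp, Chn2, Pclaf, Aldoc and C1qb followed, with differences from -3.31 to -2.39. The genes that ended below 6.66 were led by Mamdc2 (9.46 to 5.58) and Cd209a, then F13a1, Serpinb10, Kcnj10, Plk1, Slc9a9, Lepr, Anln, Kif11, Kif20a, Gask1b, Tnc, Prc1 and Nuf2. Of these 15, the 6 genes Plk1, Anln, Kif11, Kif20a, Prc1 and Nuf2 act in mitosis.

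The genes were then read by function, through 49 lists of pathways and families in which every measured member is counted, whatever its level. Over all 19938 genes, 2.62% passed 2-fold upwards and 2.04% passed it downwards, and the median difference was 0.00, so a list's count and median are read against these values. The median lay above 0.5 for 14 lists and below -0.5 for 2 lists, those of cholesterol synthesis and of G2 and mitosis. No list has a test here.

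**Figure D2:**
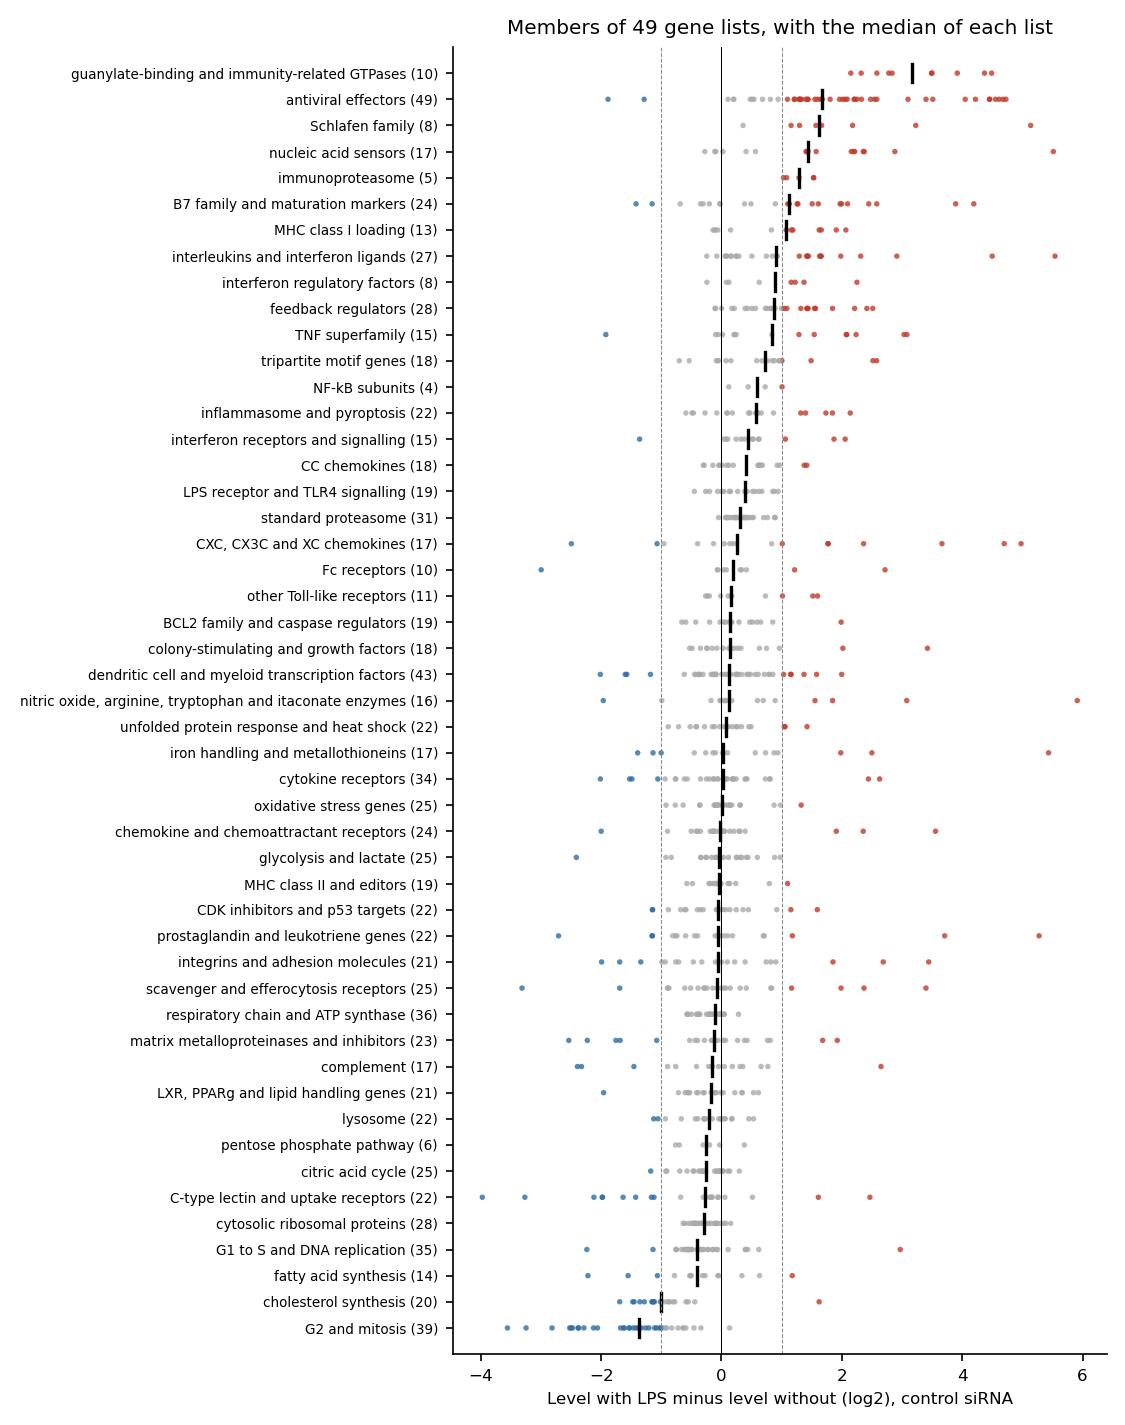
Log2 level with LPS minus that without, control siRNA, for each measured member (points) of 49 gene lists, sorted by the list's median (black bar); the number of measured members follows each name. Red and blue points are at least 2-fold higher and lower (dashed lines). Medians run from 3.16 for guanylate-binding and immunity-related GTPases to -1.38 for G2 and mitosis.

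The machinery that senses LPS changed little. Of 19 measured genes of the LPS receptor and its signalling path, 0 were 2-fold apart in either direction, with a median difference of 0.39. Tlr4 stood at 9.96 without LPS and 9.70 with it, its partner Ly96 at 12.10 and 12.61, and the co-receptor Cd14 at 12.21 and 12.77. The adaptors were as close, with Myd88 at 11.22 and 11.64 and Ticam1 at 9.33 and 9.60. The largest differences belonged to kinases and a ligase farther down: Ikbke (0.94), which phosphorylates IRF3 together with TBK1, Map3k8 (0.88), which activates ERK, and Traf6 (0.85). Other Toll-like receptors were split. Tlr1, a partner of TLR2 for lipoproteins, went from 7.88 to 9.47. The nucleic acid receptors Tlr3 (7.82 to 9.34) and Tlr7 (9.90 to 10.92) also passed 2-fold, while Tlr8, Tlr9 and Tlr13 differed by -0.23, 0.15 and -0.26. The subunit Nfkb2 of NF-kB was 2.01-fold higher and Rela, the main activating subunit, stood at 10.74 and 10.86.

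Inhibitors of this signal were higher as a group. Of 28 feedback regulators, 12 passed 2-fold upwards and 0 downwards, and their median was 0.87. Socs1 and Socs3, which block JAK kinases, had the largest differences, from 7.92 to 10.43 and from 7.60 to 10.02. Usp18, which removes ISG15 and damps the type I interferon receptor, went from 11.23 to 13.45. These 3 act on cytokine and interferon signals, while the next act on NF-kB and MAP kinases. The kinase phosphatase Dusp4 went from 6.72 to 8.57 and Dusp1 from 10.88 to 12.20. Nfkbia, which encodes the NF-kB inhibitor IkB alpha, went from 11.0 to 12.55, and Tnfaip3, the ubiquitin-editing enzyme A20, from 9.04 to 10.48. Zfp36, which speeds decay of cytokine mRNA, stood at 10.97 and 10.88, and Tollip at 10.20 and 10.09, so not every brake was higher.

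The promoter of Nfkbia is shown because it holds the letters of the NF-kB site beside a gene that NF-kB is known to induce. The letters searched were GGGANTTTC on both strands, in windows of 300 bases, 250 before and 50 after each gene's start (RefSeq, GRCm38.p6). Capitals mark the matches in the 280 bases printed, 113 and 28 bases before the start, on the minus strand of chr12:55492618-55492897.
Nfkbia: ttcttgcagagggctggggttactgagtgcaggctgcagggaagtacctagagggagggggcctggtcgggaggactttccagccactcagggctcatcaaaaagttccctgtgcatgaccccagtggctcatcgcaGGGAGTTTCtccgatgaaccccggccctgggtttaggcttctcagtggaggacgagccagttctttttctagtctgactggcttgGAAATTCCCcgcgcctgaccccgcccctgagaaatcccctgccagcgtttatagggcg
In the promoter table, 349 of 27025 genes (1.29%) held this string. It was found in 16 of the 387 higher genes with a promoter in the table (4.13%) and in 0 of the 309 lower genes. Among feedback regulators, 2 of 21 held it (9.52%), Nfkbia and Cyld, the second of which stood at 8.59 and 8.80. A match is a run of letters, not a bound site.

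Many members of the cytokine families were dim on both arrays. Of 27 interleukins and interferon ligands, 12 were at least 2-fold higher and 0 lower. Il6 went from 5.68 to 11.23. Both subunits of interleukin-12, which drives T helper 1 responses, were higher, with Il12b at 8.97 and 13.47 and Il12a at 5.83 and 8.14. The p40 subunit Il12b also pairs with p19 (Il23a) to form interleukin-23, and Il23a stood below 6.66 on both arrays, at 5.65 and 6.16. Interleukin-1 genes were bright before LPS, with Il1a at 10.35 and 13.27 and Il1b at 11.22 and 13.21. Il15 (1.66), Il33 (1.65) and Ebi3 (1.63), a subunit of interleukin-27, were also higher. The anti-inflammatory Il10 went from 4.68 to 6.10, below 6.66 on both arrays, and Ifnb1 and Ifna4 stayed dim, with Ifnb1 at 4.97 and 5.06 and Ifna4 at 5.22 and 5.37 at this time.

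Of 15 ligands of the TNF superfamily, 7 were at least 2-fold higher and 1 was lower. Tnf itself went from 8.31 to 10.39. Tnfsf15 (TL1A), a co-stimulator of T cells, had the largest difference, from 9.19 to 12.28, and Tnfsf10, the death ligand TRAIL, went from 6.44 to 9.47. The OX40 ligand Tnfsf4, the CD30 ligand Tnfsf8, the 4-1BB ligand Tnfsf9 and Cd70 were higher by 2.24, 2.08, 1.54 and 1.29. The ligand LIGHT, Tnfsf14, was the exception, at 8.27 and 6.35. Among 18 growth factors, Inhba, which encodes activin A, went from 9.63 to 13.05 and Tgfb2 from 6.18 to 8.20, while Csf2 and Csf3 lay below 6.66 on both arrays.

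More chemokines of the CXC, CX3C and XC classes than of the CC class passed 2-fold, and the median over all measured members was 0.25 in the first and 0.40 in the second. Over members whose mean of the 4 arrays reached 6.66, these medians were 1.39 and 0.63, in the opposite order. The 3 ligands of CXCR3, which draw activated T cells and natural killer cells, came up from below 6.66: Cxcl9 went from 5.70 to 9.36, Cxcl10 from 6.35 to 11.04 and Cxcl11 from 6.31 to 11.29. The neutrophil attractants Cxcl1, Cxcl2 and Cxcl3 were higher by 1.77, 1.77 and 2.36. Ppbp (11.85 to 9.36) and Cxcl13 (7.44 to 6.37) were lower, so that, with Cx3cl1 (1.01), 7 of 17 genes were at least 2-fold higher and 2 lower. Of 18 CC chemokines, only the monocyte attractants Ccl2 (9.58 to 11.0) and Ccl7 (7.02 to 8.39) passed 2-fold. Several CC chemokines were already bright, with Ccl5 at 13.16 and 14.09, Ccl17 at 13.13 and 13.76, and Ccl22 at 13.04 and 13.64.

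Chemokine receptors went both ways, with 3 of 24 at least 2-fold higher and 1 lower. Ccr2, the receptor of monocytes for Ccl2, went from 11.72 to 9.72. Ccr7, which guides mature dendritic cells to lymph nodes, was among the bright genes without LPS, at 12.99, and stood at 13.38 with it. Ccr4 came up from 6.19 to 9.75, Cxcr5 from 5.11 to 7.46 and Ccrl2 from 9.76 to 11.67. Of 34 cytokine receptors, 2 were at least 2-fold higher and 4 lower. The higher ones were Il15ra (7.71 to 10.34), which presents interleukin-15 to neighbouring cells, and Il2ra (9.55 to 11.99). Both chains of the interleukin-18 receptor were lower, Il18r1 by 4.03-fold and Il18rap by 2.88-fold, and so were both chains of the interleukin-6 receptor, Il6ra (2.08-fold) and the shared Il6st (2.80-fold).

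**Figure D3:**
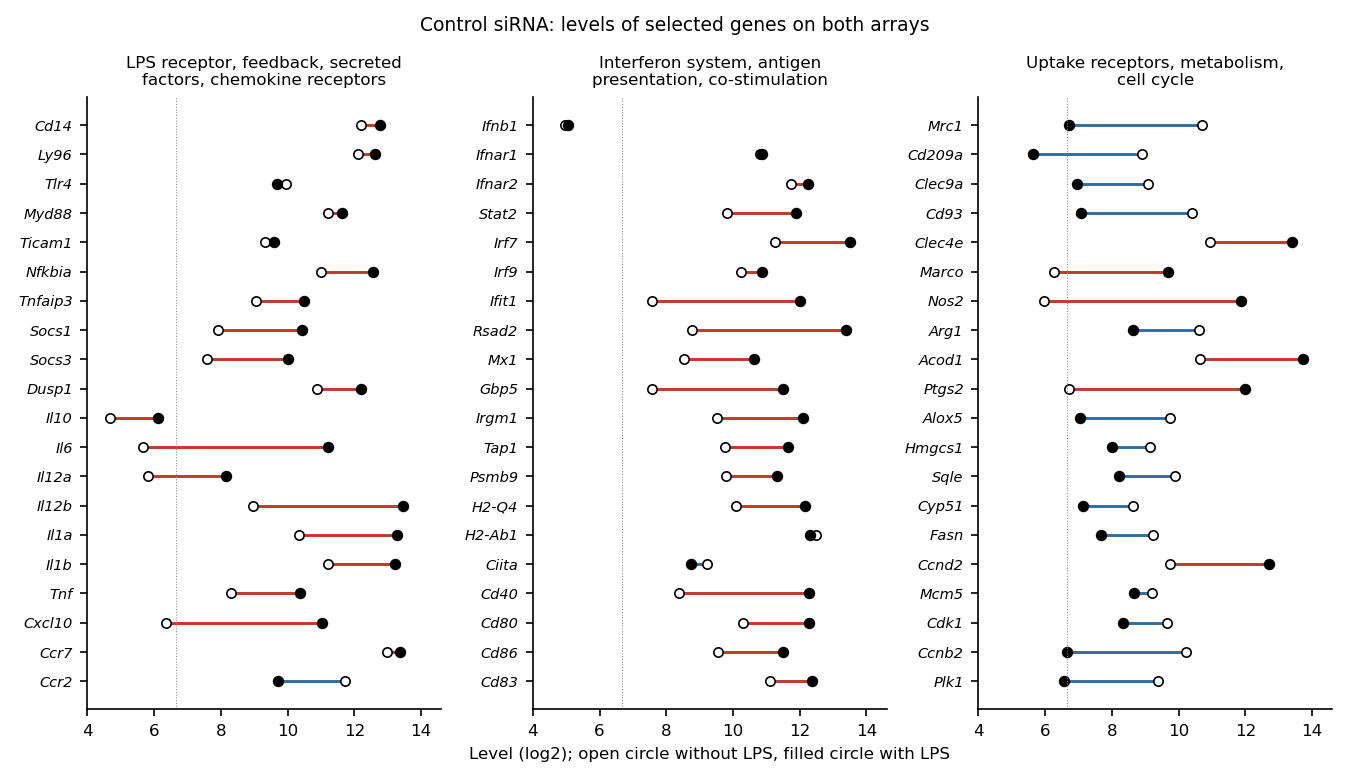
Levels (log2) of genes described in the text on the array without LPS (open circle) and with LPS (filled circle), control siRNA. Red lines lead to a higher level and blue lines to a lower one, and the dotted line marks 6.66. Tlr4 and Ifnb1 hardly differ, Nos2 and Il6 cross the dotted line upwards, and Mrc1 and Ccnb2 come down to it.

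Genes induced by interferons filled the list with the most higher genes, that of antiviral effectors. Type I interferon receptors moved little, with Ifnar1 at 10.82 and 10.86 and Ifnar2 at 11.74 and 12.25, while Ifngr1, the ligand-binding chain for interferon gamma, was lower, at 11.36 and 10.0. Stat2 went from 9.83 to 11.89 and Irf7, the factor that amplifies interferon production, from 11.26 to 13.51. Irf1, Irf4 and Irf8 were also at least 2-fold higher and Irf3, which is activated by phosphorylation, stood at 8.01 and 8.09. Stat4, a transducer of interleukin-12, went from 9.94 to 11.81.

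Of 49 antiviral effectors, 38 passed 2-fold upwards and 2 downwards, and the median was 1.67. The Ifit genes, whose proteins bind foreign RNA ends, were among those with the larger differences. Ifit1 went from 7.56 to 12.01, Ifit2 from 7.58 to 12.31 and Ifit3 from 8.48 to 12.70. Rsad2 (viperin), which makes a chain-terminating nucleotide, went from 8.77 to 13.38, and Cmpk2, a nucleotide kinase, from 8.27 to 12.73. The Mx, Oas and Parp genes were higher by less: Mx1 by 2.09, Oas3 by 2.48, Oas1a by 1.55 and Parp14 by 1.67. Some members that were bright before LPS differed little, such as Ifitm3 at 13.15 and 13.66 and Samhd1 at 13.06 and 13.26. The 2 lower members were Ifi27 (9.49 to 7.60) and Ifitm6 (8.58 to 7.29). Near-identical copies such as Ifit3 and Ifit3b may share probes.

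The measured GTPases of the families that attack vacuoles holding microbes were all higher. They were 10 of 10 guanylate-binding and immunity-related GTPases, with a median of 3.16. The list has 20 entries, and nothing is said of those not measured, among them Igtp, Irgm2 and Gbp2. Gbp4 went from 7.19 to 11.56, Gbp5 from 7.58 to 11.50 and Irgm1 from 9.52 to 12.10, and Gbp8 had the smallest difference, 2.15. Sensors of nucleic acids followed, with 11 of 17 higher and a median of 1.44. The RNA helicases Ddx58 (RIG-I), Ifih1 (MDA5) and Dhx58 were higher by 1.57, 2.37 and 2.16, and Zbp1 by 2.36, while the adaptors below them stayed level, with Mavs at 10.11 and 10.01 and Sting1 at 11.24 and 11.13. Schlafen genes were higher in 7 of 8 cases, led by Slfn4 (6.80 to 11.94) and Slfn1 (8.95 to 12.18). In the inflammasome list 5 of 22 passed 2-fold. These included Casp1 (8.93 to 10.77) and Casp4 (8.28 to 10.42), the mouse caspase-11 gene that senses LPS in the cytosol, as well as Mlkl (1.74), the pore former of necroptosis. Nlrp3 was 1.82-fold higher and the adaptor Pycard stood at 10.12 and 9.65.

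Promoters of an antiviral gene and of a GTPase gene are shown because they hold the core letters of the interferon-stimulated response element. The letters searched were GAAANNGAA on both strands, and capitals mark the matches. Ifit3b (plus strand, chr19:34607707-34607986) holds 3, at 187, 153 and 134 bases before the start, and Gbp5 (plus strand, chr3:142496684-142496963) holds 1, at 164 bases before it.
Ifit3b: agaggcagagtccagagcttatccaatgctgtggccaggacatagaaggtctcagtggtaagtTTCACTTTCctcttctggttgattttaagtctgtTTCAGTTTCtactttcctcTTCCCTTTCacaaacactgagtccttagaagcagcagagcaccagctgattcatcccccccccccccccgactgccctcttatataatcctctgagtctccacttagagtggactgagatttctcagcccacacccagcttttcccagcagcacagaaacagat
Gbp5: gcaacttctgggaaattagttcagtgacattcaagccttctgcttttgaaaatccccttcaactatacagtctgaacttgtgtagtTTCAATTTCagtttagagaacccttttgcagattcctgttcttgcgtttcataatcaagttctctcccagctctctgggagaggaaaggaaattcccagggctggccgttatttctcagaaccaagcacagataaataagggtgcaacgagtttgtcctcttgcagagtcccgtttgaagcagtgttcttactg
This string occurred in 2638 of 27025 promoters (9.76%). It occurred in 80 of 387 higher genes (20.7%), in 34 of 309 lower genes (11.0%), in 14 of 38 antiviral effectors (36.8%) and in all 5 GTPase genes with a promoter in the table. The antiviral effectors with the string had a median difference of 1.76 and the 24 without it 1.62. The strings for interferon and NF-kB share the letters GAAA or TTTC at an end, so a stretch can count for both.

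Mir155 is the gene of a microRNA known to be induced by Toll-like receptors, and it was singled out after its values were seen. It went from 6.31 to 9.20. Of 300 microRNA genes named on the array, 49 reached 6.66 on at least 1 of the 2 arrays, Mir155 only on that with LPS. Among these 49, Mir155 was the 1 gene at least 2-fold apart, and the differences of the other 48 lay between -0.60 and 0.46. MicroRNA genes below 6.66 on both arrays were not counted. The filter reads the same 2 arrays as the difference, so these counts only describe them. The array does not tell precursor from mature RNA. Its main mature strand is shown with the seed, bases 2 to 8, in capitals (RefSeq, GRCm38.p6, plus strand, chr16:84714143-84714165).
mmu-miR-155-5p: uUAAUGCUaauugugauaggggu

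Among the genes measured, antigen presentation changed on the class I side and in 1 gene on the class II side. The class I genes H2-K1, H2-D1, H2-Q7, H2-T22 and H2-T23 were not among them, so nothing is said of their levels. The catalytic subunits of the immunoproteasome, which cuts peptides for class I, went from 10.14 to 11.22 (Psmb8), from 9.79 to 11.32 (Psmb9) and from 10.17 to 11.46 (Psmb10). With the activator subunits Psme1 and Psme2, 5 of 5 were at least 2-fold higher, with a median of 1.29. The standard proteasome had 0 of 31 past 2-fold and a median of 0.30. The peptide transporter genes Tap1 (9.75 to 11.66) and Tap2 (8.89 to 10.07), the loading factors Tapbp and Tapbpl, and H2-Q4, H2-M3 and Cd1d1 made up 7 of 13 class I genes that passed 2-fold. B2m, the invariant light chain, was near the top of the scale on both arrays, at 13.45 and 13.61.

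Of 19 class II genes and their editors, 1 passed 2-fold, H2-Ob (8.25 to 9.35), a chain of the H2-O protein that restrains peptide exchange. H2-Aa stood at 13.05 and 12.93 and H2-Ab1 at 12.49 and 12.31. Ciita, the master activator of class II genes, stood at 9.22 and 8.74. Co-stimulation was higher: Cd40 went from 8.39 to 12.28, Cd80 from 10.29 to 12.28 and Cd86 from 9.53 to 11.51. The inhibitory ligand Cd274 (PD-L1) went from 11.50 to 12.76 and its relative Pdcd1lg2 stood at 10.53 and 10.51. In all, 13 of 24 genes of the B7 family and of maturation were at least 2-fold higher and 2 were lower, Vsir (VISTA, 11.62 to 10.20) and Cd200r1 (11.27 to 10.12), both inhibitory receptors or ligands.

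More uptake receptors were lower than higher. Of 22 C-type lectin and uptake receptors, 9 were at least 2-fold lower and 2 higher. Besides Mrc1, Cd209a (DC-SIGN family) went from 8.90 to 5.63, Clec9a, a receptor for dead cells, from 9.09 to 6.97, and Mgl2, a galactose-binding lectin, from 9.44 to 7.81. The exceptions were Clec4e (Mincle), a receptor for mycobacterial glycolipid, at 10.93 and 13.40, and Ly75 (DEC-205), at 8.77 and 10.38. Scavenger receptors went both ways: Marco came up from 6.28 to 9.67 and Olr1 from 9.98 to 12.35, while Cd93 went from 10.39 to 7.08. The high-affinity Fc receptor Fcgr1 went from 9.18 to 11.90 and the Fc receptor-like Fcrls from 10.88 to 7.88. The 3 chains of C1q, which open the classical complement path, were lower, with C1qa at 8.04 and 6.58, C1qb at 10.21 and 7.82 and C1qc at 9.45 and 7.12, whereas factor B of the alternative path (Cfb) went from 10.72 to 13.37.

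Enzymes that make small signalling and antimicrobial molecules went both ways. Nos2 and Arg1 compete for arginine. Arg1 was lower, at 10.61 and 8.65, and the arginine transporter Slc7a2 was higher, at 10.99 and 12.83. Gch1, which starts synthesis of the cofactor of Nos2, went from 7.08 to 8.63, and Acod1, which makes itaconate, from 10.64 to 13.72. Of 22 prostaglandin and leukotriene genes, 3 passed 2-fold upwards and 3 downwards, and the median was -0.05. The higher ones included Ptgs2 and the prostaglandin E synthase gene Ptges, with Ptgs2 at 6.71 and 11.99 and Ptges at 7.40 and 11.11. Alox5, which makes leukotrienes, went from 9.75 to 7.04, and its helper Alox5ap from 12.54 to 11.78.

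Central energy metabolism moved little at the RNA level. Of 25 glycolysis and lactate genes, 0 passed 2-fold upwards and 1 downwards, Aldoc (11.0 to 8.59), and the median was -0.03. Pfkfb3, which raises glycolytic flux, was 1.97-fold higher and Slc2a1, the main glucose transporter, 1.26-fold. In the citric acid cycle 1 of 25 was lower past 2-fold, the cytosolic Idh1 (12.45 to 11.27), and the mitochondrial Idh2 went from 10.0 to 9.08. Of 36 genes of the respiratory chain and ATP synthase, 0 passed 2-fold in either direction, and neither did any of 28 cytosolic ribosomal protein genes, with medians of -0.11 and -0.29.

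Cholesterol synthesis was lower along nearly its whole length. Of 20 genes, 10 were at least 2-fold lower and 1 higher, and 17 were at least 1.5-fold lower, with a median of -1.0. At the entry, Hmgcs1 went from 9.16 to 8.0, and further on Fdps from 9.87 to 8.42. Sqle, which makes the epoxide that is closed into the sterol ring, went from 9.91 to 8.21, and Cyp51, which removes a methyl group from lanosterol, from 8.62 to 7.15. Srebf2, the transcription factor that drives the pathway, stood at 10.20 and 9.21, and Insig1, its sterol-dependent brake and target, at 10.62 and 9.26. Pmvk, the phosphomevalonate kinase, was the exception, at 7.83 and 9.45. Fatty acid genes had a weaker median of -0.41 over 14 members, with Fads2 at 10.48 and 8.26 and Fasn at 9.22 and 7.67. Pparg, a lipid-sensing nuclear receptor of alternatively activated cells, went from 9.21 to 7.25. Abca1, a sterol exporter, stood at 10.77 and 10.76.

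The Hmgcs1 promoter is shown as the cholesterol gene in which the sterol response letters were found. The string searched was TCACNCCAC on both strands, and the match in capitals starts 137 bases before the start (plus strand, chr13:119690101-119690380).
Hmgcs1: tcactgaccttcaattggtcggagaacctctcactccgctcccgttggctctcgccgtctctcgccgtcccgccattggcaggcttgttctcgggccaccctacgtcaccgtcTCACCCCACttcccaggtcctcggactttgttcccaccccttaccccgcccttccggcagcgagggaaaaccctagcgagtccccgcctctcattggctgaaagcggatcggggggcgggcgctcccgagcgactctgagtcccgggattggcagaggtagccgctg
Of 16 cholesterol genes with a promoter in the table, 1 held this string, against 388 of 27025 promoters (1.44%). CCAAT, the letters read by NF-Y, were found on either strand in all 16, against 11096 of 27025 promoters (41.1%).

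Iron genes went both ways, 3 of 17 higher and 3 lower. Besides Lcn2, the iron hormone hepcidin (Hamp) went from 7.31 to 9.80 and its target, the iron exporter ferroportin (Slc40a1), from 7.39 to 6.25. The transferrin receptor Tfrc was 2.0-fold lower, and the ferritin chains Fth1 and Ftl1 stayed at the top of the scale on both arrays, with differences of 0.03 and 0.02. Of 25 oxidative stress genes, 1 passed 2-fold, the mitochondrial superoxide dismutase Sod2 (12.20 to 13.52).

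Genes of cell division were lower, by median more so in mitosis than in DNA replication. Of 39 genes of G2 and mitosis, 28 passed 2-fold downwards and 0 upwards, and the median was -1.38. Ccna2 went from 10.14 to 6.90, the mitotic kinase Plk1 from 9.39 to 6.58 and the spindle motor Kif11 from 8.44 to 5.93. The kinase Cdk1, partner of both cyclins, kept more of its level, at 9.67 and 8.33, and Mki67 stood at 9.11 and 8.47. Plk4, the kinase of centriole duplication, was the member not lower, at 8.03 and 8.16. The G1 to S and replication list stood at a median of -0.41, and 2 of its 35 genes passed 2-fold downwards, Rrm2 (9.82 to 7.58), the regulated subunit of ribonucleotide reductase, and Ccne2 (7.39 to 6.25). The helicase genes Mcm2 to Mcm7 differed by -0.31 to -0.76. Ccnd2, cyclin D2, stood apart, going up from 9.75 to 12.72. The inhibitor Cdkn2b (p15) was 2.22-fold higher, while Cdkn2c (p18) was 2.21-fold lower.

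**Figure D4:**
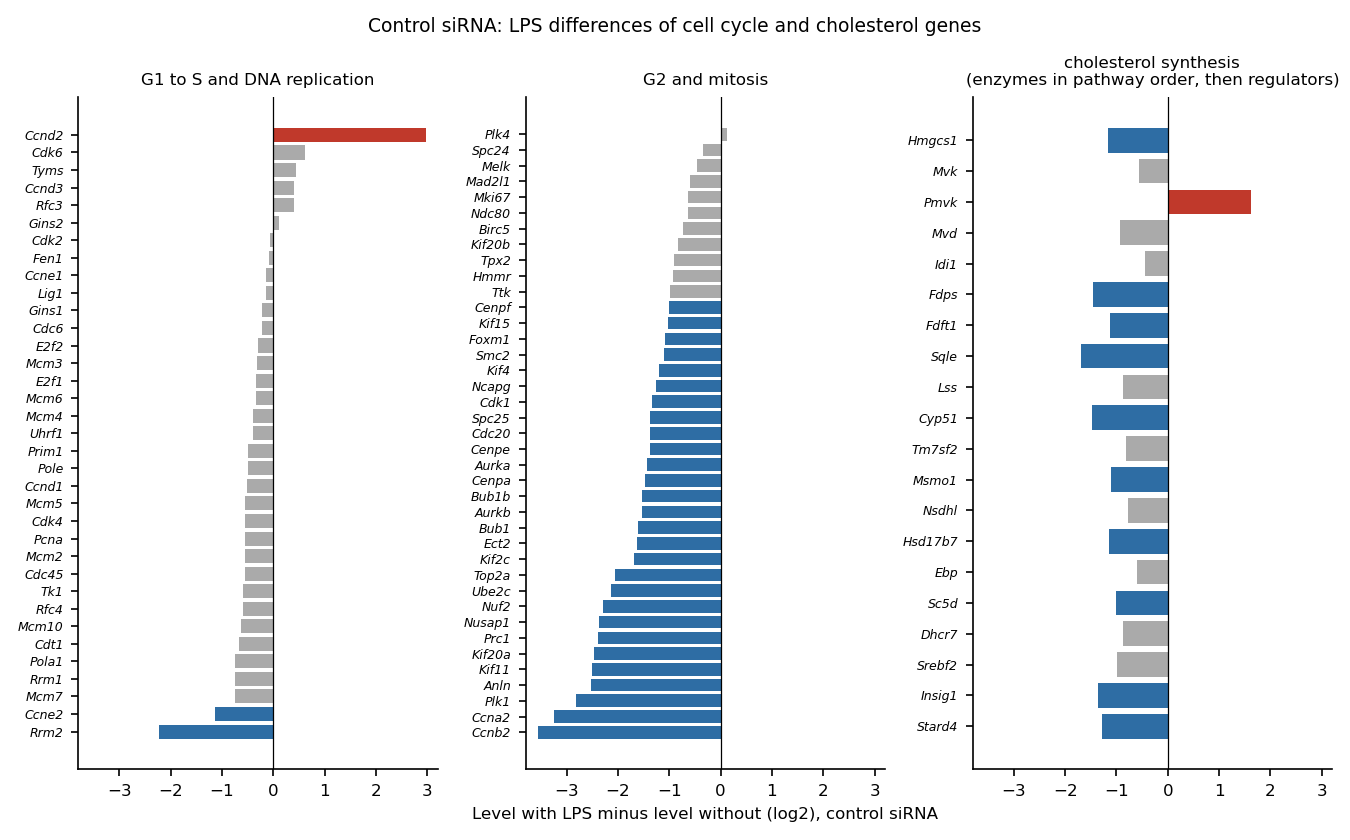
Log2 level with LPS minus that without, control siRNA, for members of 3 gene lists; bars past 2-fold are red (higher) or blue (lower). In the mitosis list 28 of 39 bars are blue, in the replication list 2 of 35, and in the cholesterol list 10 of 20 with Pmvk alone in red.

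The Ccnb2 promoter shows the arrangement known for genes of G2 and mitosis, CCAAT boxes spaced ahead of a cell cycle homology region (TTTGAA) near the start. On the minus strand of chr9:70421525-70421804 it holds CCAAT at 87, 54 and 21 bases before the start, and TTTGAA at 167 bases before and at base 5 after it, all in capitals.
Ccnb2: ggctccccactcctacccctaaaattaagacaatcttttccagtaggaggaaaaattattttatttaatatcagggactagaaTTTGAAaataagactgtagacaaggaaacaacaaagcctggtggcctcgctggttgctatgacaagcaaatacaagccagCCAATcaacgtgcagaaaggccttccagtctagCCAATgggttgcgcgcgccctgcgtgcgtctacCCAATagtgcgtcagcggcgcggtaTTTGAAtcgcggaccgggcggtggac
Both strings occurred together in 20 of 33 promoters of the mitosis list (60.6%), in 3 of 28 of the replication list (10.7%) and in 2425 of 27025 promoters (8.97%). TTTGAA alone was found in 25 of 33 (75.8%) and 4 of 28 (14.3%), against 5466 of 27025 (20.2%). The replication list was added to this search after the others had been seen. Both searches read either strand, and a stretch can share letters between them.

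Lists of survival, matrix, adhesion and transcription factor genes had members past 2-fold in differing shares. Cflar, which blocks caspase-8 activation, went from 8.28 to 10.26, and was the 1 gene of 19 in the BCL2 and caspase list past 2-fold. Of 23 matrix protease genes and inhibitors, 2 were higher and 5 lower. Timp1, an inhibitor, went from 10.54 to 12.46, while the proteases Mmp8 and Mmp19 went from 12.74 to 10.51 and from 12.63 to 10.10, and the inhibitor Timp2 from 11.47 to 9.78. Of 21 integrins and adhesion molecules, 3 were higher and 3 lower, among them Itga5 (1.85) and Itgb8 (3.44) higher and Itga1 (-1.99), Itga6 (-1.34) and Itgb5 (-1.69) lower. Among 43 transcription factors of the lineage, 6 were at least 2-fold higher and 4 lower. Nr4a2 (7.79 to 9.79), Batf2 (7.48 to 9.06) and Zeb1 (8.26 to 9.40) were higher besides Irf4 and Irf8, and Fos (9.17 to 7.16), Myc (8.60 to 7.0), Klf4 (8.99 to 7.42) and Cebpa (9.77 to 8.59) were lower. Spi1 (PU.1), the lineage factor of myeloid cells, stood at 12.37 and 12.28.

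Markers that could report on a change in cell makeup did not move together. Of 11 macrophage markers, 2 passed 2-fold upwards and 3 downwards, with Adgre1 (F4/80) at 11.08 and 12.61 against the lower Mrc1, C1qa and C1qb. Of 5 monocyte markers, Ccr2 and F13a1 were lower and Plac8 higher (5.59 to 8.59). Of 12 dendritic cell markers, 0 were higher and 2 lower, Clec9a and Cd24a (11.22 to 9.83). In lists of other lineages, few members were above 6.66 on either array, except in the stromal list, where 5 of 7 reached it. Cd2 (7.81 to 5.78), Cd22 (8.87 to 7.63), Siglecf (10.21 to 8.04), Klrk1 (8.33 to 9.73), Bst2 (8.89 to 11.22), which is also among the antiviral effectors, and the matrix gene Dcn (7.30 to 9.99) passed 2-fold. Of their lineages, Cd3e, Cd79a, Ms4a1, Prg2, Ncr1 and Siglech stayed below 6.66, while Col1a1 beside Dcn stood at 7.20 and 7.13. In the T cell list 2 of 8 measured members reached 6.66 on at least 1 array, and in the plasmacytoid list 2 of 5. Whether a shift of cell types had a part in the differences above was not tested.

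The second pair of arrays, cells with NR4A3 siRNA without and with LPS, shares no array with the first and gives the same contrast in cells with another siRNA. It is not a replicate. In that pair 2.81% of the 19938 genes passed 2-fold upwards and 1.43% downwards. Of 523 genes higher with control siRNA, 411 were also at least 2-fold higher with NR4A3 siRNA (78.6%, or 73.3% of the 561 of that pair). Of 407 lower genes, 226 were shared (55.5%, or 79.3% of 285). The sign was the same for 515 of the 523 and for 401 of the 407. Median differences of the higher genes were 1.57 and 1.56 in the pairs, and those of the lower genes -1.34 and -1.05. Over the 10346 genes the differences of the pairs had a Pearson correlation of 0.895, given as a description since genes are not independent replicates, and 128 genes had differences at least 2-fold apart.

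List medians of the second pair are set beside those of the first. The antiviral median was 1.67 with control siRNA and 1.89 with NR4A3 siRNA, and that of the GTPases 3.16 and 3.30. The cholesterol median was -1.0 and -0.66, with 10 and 6 of 20 genes at least 2-fold lower. The mitosis median was -1.38 and -0.72, with 28 and 15 of 39. Mitosis genes with large control differences began lower with NR4A3 siRNA and ended near or below 6.66 in both pairs. Ccnb2 stood at 10.22 and 6.67 with control siRNA, against 9.16 and 6.61. Plk1 stood at 9.39 and 6.58, against 8.16 and 6.22, and Kif11 at 8.44 and 5.93, against 7.16 and 5.84. The smaller mitosis differences thus include lower unstimulated levels. Medians near 0 could have opposite signs, as for glycolysis (-0.03 and 0.25), growth factors (0.14 and -0.02), matrix proteases (-0.13 and 0.03) and integrins (-0.05 and 0.06). Ccr7 and Fscn1, the actin bundler of dendrites, were bright without LPS under control siRNA and differed by 0.39 and 1.1, against 3.19 and 3.73 under NR4A3 siRNA. Klri2 was the reverse, with 4.40 and 1.74, but under NR4A3 siRNA it lay below 6.66 on both arrays, at 4.67 and 6.41. These gaps were not tested.

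**Figure D5:**
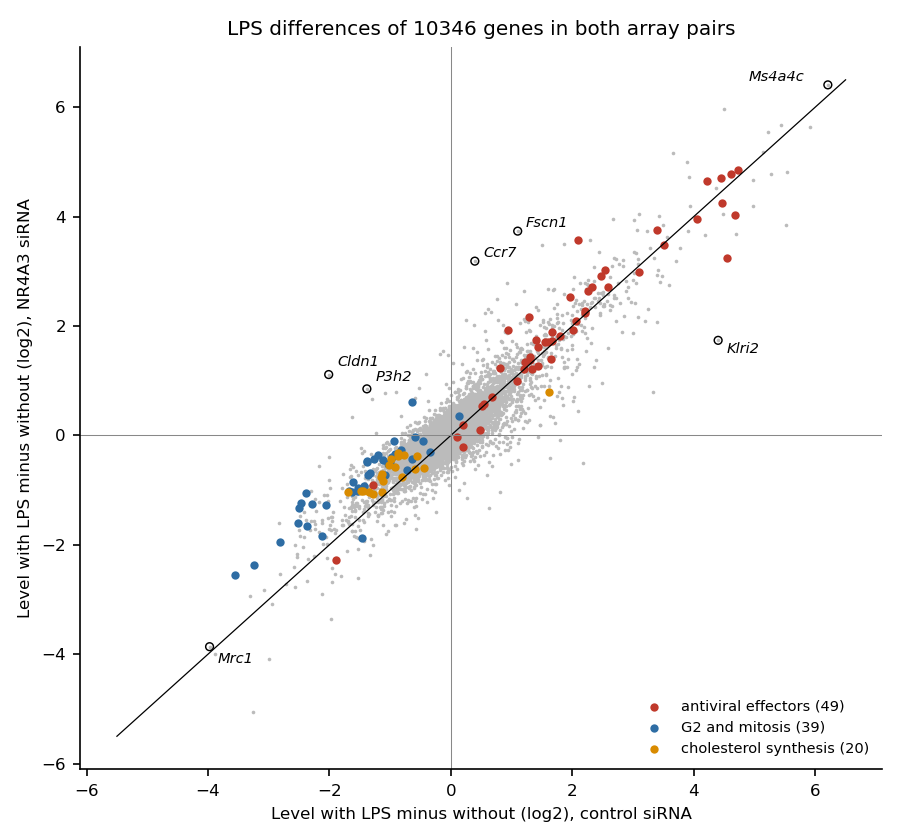
Log2 difference between LPS-treated and unstimulated cells for 10346 genes, with control siRNA (x axis) and with NR4A3 siRNA (y axis); the line marks equal differences. Antiviral genes (red), genes of G2 and mitosis (blue) and genes of cholesterol synthesis (orange) each have a higher median on the y axis. Cldn1 and P3h2 are on opposite sides of 0.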

How the data were processed

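Each condition had 1 Affymetrix Mouse Gene 1.0 ST array of total RNA. The deposited values are log2 levels from RMA16 with quantile normalization, per the labels. The software was Affymetrix Expression Console 1.1, per the submitters' processing notes. Since the arrays were forced to a common distribution, a common shift of all genes cannot be measured. Any other filter is not given in the sources used here.

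Of 28856 probe sets, 21789 had 1 gene symbol in the platform annotation, 1621 several and 5446 none here. The 999 genes with several probe sets were taken at the brightest over the 4 arrays. Differences are LPS-treated minus unstimulated, folds are their power of 2, and counts use 2-fold unless another fold is named. Counts of list members and of genes shared with the second pair use no filter on level. The other counts also need a brighter array at or above 6.66, the median over named genes and arrays, unless stated otherwise. Genes named are the 15 largest per direction above 6.66 on both arrays, the 15 largest that crossed it, up to 6 per list and members whose role a sentence needs, and genes opposite between siRNAs. Gene models, clones, small RNAs and pseudogenes were left out, except Mir155 and Cxcl11. The genes and lists were chosen with earlier results of these data known. Of 1242 list entries, 1119 were measured.

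Promoter and microRNA sequences come from RefSeq tables (GRCm38.p6), where 15563 of 19938 genes had a promoter. Python 3.11.15, pandas 2.3.3, numpy 2.4.6, R 4.3.3 and limma 3.58.1 were used, and the counting was tested on simulated data. Alternatives were 3 rescalings (median centring, a repeated quantile step, cyclic loess), other filters and folds, and a mean over probe sets. Precision is limited by the number of arrays.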

Additional observations from a re-analysis of the deposited data

Results flagged for a closer look

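For 4 genes the LPS difference was at least 2-fold downwards with control siRNA and at least 1.5-fold upwards with NR4A3 siRNA. With 1 array per condition, the difference between the siRNAs was not tested.

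Cldn1, a tight junction protein, stood at 9.57 without LPS and 7.55 with LPS under control siRNA, and at 7.73 and 8.84 under NR4A3 siRNA, so the 2 differences lay -3.12 apart on the log2 scale. P3h2, a collagen prolyl hydroxylase, stood at 8.22 and 6.84, against 5.84 and 6.69, a gap of -2.23. Ndnf, a secreted protein, stood at 7.81 and 6.52, against 5.18 and 5.84, a gap of -1.95. Adam23, a cell surface protein of the ADAM family, stood at 10.21 and 9.13, against 8.07 and 8.84, a gap of -1.85. In all 4, the unstimulated level was higher with control siRNA than with NR4A3 siRNA.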

How the results depend on the processing

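The counts of 517 higher and 396 lower genes stayed within 1.5 times under the 3 rescalings, without a filter, with the filter on the mean of 4 arrays and with the mean of probe sets (480 to 531 higher, 362 to 407 lower). They followed the fold: 1058 and 977 genes at 1.5-fold, 260 and 122 at 3-fold. With the brighter array at or above the 75th percentile (8.67), 250 lower genes were counted, and 403 higher. The share of higher genes among those counted was 56.6%, and 55.2% to 58.2% under the rescalings. None of 64 named genes moved by 0.1 or more on the log2 scale under quantile normalization or cyclic loess, where the largest shift was 0.09. Median centring moves every gene by the same 0.02, so it could not reach 0.1. The mean of probe sets could move only Pclaf, since the other named genes have 1 probe set each. List medians moved by up to 0.13 with quantile normalization, and interferon regulatory factors by 0.20 with the mean of probe sets. With members whose mean over 4 arrays reached 6.66, 18 of 60 list medians moved by 0.1 or more; interleukins then stood at 1.65, CXC, CX3C and XC chemokines at 1.39, CC chemokines at 0.63 and C-type lectins at -1.12. No list median of at least 1.5-fold changed sign. No paired analysis was possible because each condition has 1 array, and for the same reason no array could be left out.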

Other observations

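Of the 913 genes counted as changed, 618 were in none of the lists, 320 higher and 298 lower. The families below were picked from among them after their values were seen, so their counts only describe these arrays. A member is counted as higher or lower where its brighter array reached 6.66, so dim members can be counted through the array on which they are high. Over all 19938 genes, without a filter on level, 2.62% passed 2-fold upwards and 2.04% downwards. Among the 10346 genes whose brighter array reached 6.66, 5.00% and 3.83% did. Close copies can share probes.

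The Ms4a family of tetraspan membrane proteins had 19 measured genes, of which 7 passed 2-fold upwards and 0 downwards, and the median over the 19 was 0.29. Besides Ms4a4c, Ms4a6c went from 9.10 to 12.38, Ms4a6b from 6.46 to 9.56, Ms4a4a from 8.69 to 11.20 and Ms4a6d from 11.45 to 13.47. The differences of these 7 under NR4A3 siRNA ran from 0.54 for Ms4a8a to 6.41 for Ms4a4c. The Cd300 family of lipid-sensing immune receptors went mostly the other way: of 8 genes, 5 were at least 2-fold lower, led by Cd300ld (9.90 to 7.66) and Cd300a (9.74 to 8.06), and Cd300e was higher (6.05 to 7.32). Of 10 measured genes of the Klk1b kallikrein cluster, 6 passed 2-fold downwards and 0 upwards, the median was -1.29, and 3 of the 6 lay below 6.66 with LPS. Klk1b11 stood at 13.63 without LPS and 10.80 with it, and the others included Klk1b1 (11.47 to 10.32) and Klk1b27 (10.35 to 8.71).

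Sialic acid-binding and Trem receptors had members in both directions. Siglece, an inhibitory receptor, went from 7.01 to 10.79 and Siglec1 (CD169) from 7.86 to 10.88. Trem3 went from 7.21 to 10.28 and Treml4 from 8.55 to 11.14, while Trem2 went from 12.46 to 11.11 and Trem1 stood at 9.14 and 9.40. Of 30 histone genes, 5 were at least 2-fold lower and 0 higher, and the median over the 30 was -0.38, with H1f5 at 9.43 and 7.40 and H2ac15 at 11.28 and 9.38. Sema7a was the 1 gene past 2-fold among 20 semaphorin genes, at 9.66 and 11.95, a count that is not read as a result about the family.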
